A study of Homo sapiens with 12 samples.

Results

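The state of A375 cells that received both SB-3CT and interferon gamma (IFNγ) was set against that of cells that received neither. Samples were assigned to the groups by their labels alone, all 3 of the group labelled with both agents and all 3 of the control group. These make 6 of the 12 samples in the series, and all 4918 genes of the table were tested. The comparison itself was chosen with earlier results of these data known. A375 is an established human melanoma cell line that carries an activating BRAF mutation. SB-3CT is a small-molecule inhibitor of the gelatinases MMP2 and MMP9, and IFNγ is the cytokine through which activated T cells and natural killer cells act on tumour cells. The doubly treated cells had SB-3CT and IFNγ together for 24 h, and the control samples are labelled as not treated, although the treatment text of all samples also speaks of a vehicle. The other 6 samples, 3 with SB-3CT alone and 3 with IFNγ alone, each for 24 h, are given only to place the doubly treated cells. The labels do not say that replicates came from separate cultures, so the p-values measure only the spread between these samples, and all samples come from 1 cell line.

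IFNγ binds its receptor on the cell surface and activates the JAK kinases, and many of its target promoters carry the GAS element (gamma-activated sequence). The signal also raises IRF1, and IRF factors bind a second element, the ISRE (interferon-stimulated response element). In tumour cells this programme raises antigen presentation, chemokines and antiviral proteins, and also PD-L1, the ligand through which a tumour cell restrains T cells. A different programme, the integrated stress response, slows translation and acts through ATF4 and CHOP, which share a composite DNA element. MMP2, MMP9 and IRF1 follow FAM46B, the last symbol of the table, and were not analysed here.

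Values are FPKM (fragments per kilobase of transcript, relative to all mapped fragments of a sample), and tests were made with limma on log2(FPKM + 1), the scale of the deposited values, with Benjamini-Hochberg adjustment of the p-values over all 4918 genes. On this scale a change at low FPKM comes out smaller than it is. A single value in parentheses after a gene is its log2 change in doubly treated cells against control, and errors are SD with n = 3 unless another is named. The depth of the samples is unknown in reads, but the steps that single reads leave in the lowest values put it between 96.0% and 106.6% of the control mean in the controls and between 91.45% and 140.6% in the doubly treated samples. Pearson's r across genes was between 0.9975 and 0.9976 within the controls, between 0.9971 and 0.9978 within the doubly treated samples, and between 0.9775 and 0.9803 across the groups. Of the markers fixed for a melanoma line, CD63, CSPG4, ERBB3, CDH2 and AXL had control means of 655, 48.5, 57.1, 14.3 and 41.2 FPKM. The pigment enzyme gene DCT was near 0, with a control mean of 0.278 FPKM, and CITED1 had 0.9 FPKM. Of the genes that mark other cell types, 14 summed to between 2.31 and 3.14 FPKM in the controls and between 2.19 and 2.71 FPKM in the doubly treated samples, and the other two, CD68 and CD7, are described below.

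On the deposited scale, the doubly treated cells combined a strong interferon response with a broad set of smaller falls. At an adjusted p-value under 0.05, 484 of the 4918 genes (9.84%) had higher and 1967 (40.0%) had lower levels in the doubly treated cells. Past 1.5-fold, 138 (2.81%) were higher and 463 (9.41%) were lower. On this scale the rises were fewer and larger, since 72 of the 138 reached 2-fold against 37 of the 463. In 2814 genes (57.2%) all 3 doubly treated samples lay on the same side of all 3 controls. The plot of level against change shows this shape, with a few genes far above 0 and a dense band of genes below it.

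**Figure D1:**
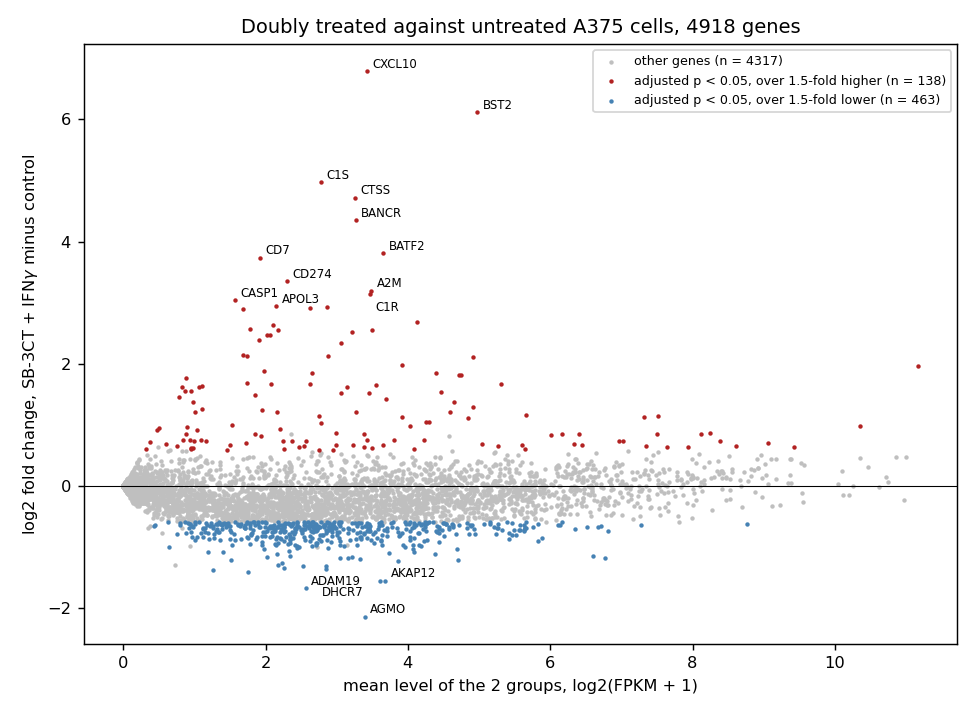
Change in doubly treated cells against the mean level of each gene. The x axis is the mean of the control and doubly treated group means in log2(FPKM + 1), the y axis the log2 fold change of doubly treated cells against control (n = 3 per group), each point is 1 of 4918 genes, and red and blue points passed both the adjusted p-value and the 1.5-fold limit. CXCL10 and BST2 lie above 6 on the y axis, and the lowest of the called genes is AGMO at -2.14.

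The balance of rises and falls depended on how the samples were scaled. Among genes with a mean of at least 1 FPKM the median log2 change was -0.23 on the deposited scale, and it was 0.01 once samples were scaled so that the median ratio of their genes to a geometric-mean reference was equal. Falls were 80.3% of all calls without this scaling and 49.8% with it, and past 1.5-fold 77.0% and 33.5%. The scaling sets the median change near 0 by its construction, so a more even split of calls follows from it. It cannot show which balance held in the cells. The counts for each gene group are therefore given both ways, first on the deposited scale and then after the scaling. Higher calls made up 12.6% and lower calls 53.1% of the 3154 genes with a mean of at least 1 FPKM, which most list members had, against 28.8% and 25.8% after scaling. A share of a list near these describes the table and not the list. The lists were written by hand with earlier results of these data known, so their counts describe these samples and are not independent evidence. Summed FPKM was higher in the doubly treated samples (128299 to 129692) than in the controls (121928 to 124346). In bulk RNA, fewer cells that express a gene and less of its RNA per cell cannot be told apart.

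Transcript length moved with the change as well. In 5 bins of genes with a mean of at least 1 FPKM, from the shortest transcripts (median 1171 bases) to the longest (median 7196.5 bases), the median log2 change in doubly treated cells went from 0.04 through -0.18, -0.26 and -0.34 to -0.42. With IFNγ alone the same medians ran from -0.11 to 0.01, and with SB-3CT alone from 0.03 to -0.11, against the same controls. The share of genes called higher in doubly treated cells went from 31.2% in the shortest bin to 4.79% in the longest, and the share called lower from 21.3% to 74.4%. The 138 genes higher past 1.5-fold had a median length of 1996 bases, the 463 lower genes 4318.5 bases and all genes 2957 bases. After the trend with length was removed and the summed FPKM kept, 158 genes were higher and 164 lower past 1.5-fold. With this trend removed, 16.9% of genes with a mean of at least 1 FPKM were called higher and 34.2% lower, and the shares of the gene groups that were mostly lower are given on this scale too.

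**Figure D2:**
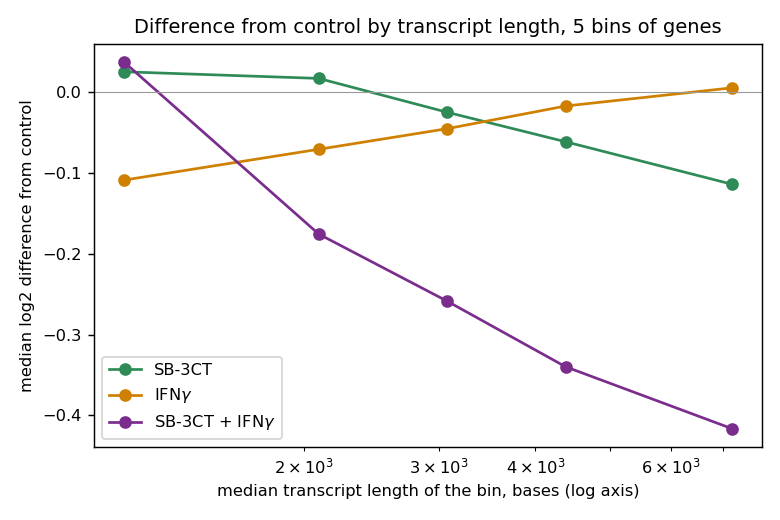
Median log2 difference from control by transcript length. The x axis is the median transcript length of 5 bins of genes with a mean of at least 1 FPKM (log axis, bases), the y axis the median over genes of the difference of group means (n = 3 per group), and each line is a treatment set against the same 3 controls. The line of the doubly treated cells falls from 0.04 to -0.42, while those of the single treatments stay between -0.11 and 0.03.

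Placed beside the single treatments, the 138 higher genes had a median log2 difference from control of 1.18 with IFNγ alone and 0.05 with SB-3CT alone, beside 1.08 with both. For the 463 lower genes these medians were -0.22 with IFNγ alone and -0.26 with SB-3CT alone, beside -0.71 with both. All 3 sets of differences use the same controls, and the genes were chosen on the doubly treated samples. Over all genes, 1862 (37.9%) differed between doubly treated cells and cells with IFNγ alone, and 1994 (40.5%) between doubly treated cells and cells with SB-3CT alone, at the same adjusted p-value. Differences from a single treatment, here and below, were computed on the deposited scale only. Median-ratio scaling divided the doubly treated samples by 0.867 to 0.882. It divided samples with IFNγ alone by 0.986 to 1.084 and those with SB-3CT alone by 1.021 to 1.078. Falls of doubly treated cells below a single treatment would thus be smaller after this scaling, and rises larger.

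The largest rise was that of CXCL10, a chemokine that draws CXCR3-bearing T cells. CXCL10 (chromosome 4 of hg19, 76942271 to 76944650, minus strand) was listed at 0 in 2 controls and at 0.05 FPKM in the third, and had 96.5, 117 and 122 FPKM in the doubly treated samples. It was listed at 0 in all 3 samples with SB-3CT alone and had 78.7, 86.2 and 80.3 FPKM with IFNγ alone. No sample without IFNγ came near those with it, and the log2 change in doubly treated cells was 6.79 (standard error, SE, 0.09, adjusted p = 1.79e-06 from limma). The doubly treated samples also lay above all 3 samples with IFNγ alone, by 0.44 on the log2 scale (adjusted p = 0.00874). CXCL10 overlaps ART3 on the other strand, and whether counting used strand is not given in the sources used here.

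CD274 encodes PD-L1 and lies on chromosome 9 of hg19 (5450503 to 5470566, plus strand). It had 0.565, 0.428 and 0.635 FPKM in the controls and 13.5, 14.4 and 16.2 FPKM in the doubly treated samples, so the groups were far apart. The log2 change was 3.35 (SE 0.09, adjusted p = 7.04e-06 from limma). With IFNγ alone CD274 had 23.9, 19.3 and 21.9 FPKM, above all doubly treated samples. On the deposited scale, the only one used for this comparison, the difference of doubly treated cells from IFNγ alone was -0.53 (adjusted p = 0.00542 from limma).

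BST2, which encodes tetherin, the protein that holds budding viruses at the cell surface, had the next largest rise after CXCL10. Its FPKM was 2.44, 2.35 and 3.68 in the controls and 268, 252 and 266 in the doubly treated samples, a log2 change of 6.12 (SE 0.13, adjusted p = 3.7e-06 from limma). With IFNγ alone it was 358, 344 and 357 FPKM, again above the doubly treated samples. B2M, the light chain of MHC class I and the most abundant of the named genes, had 1139, 1242 and 1104 FPKM in the controls and 4452, 4577 and 4588 FPKM in the doubly treated samples, a log2 change of 1.97 (adjusted p = 1.01e-05). The doubly treated samples of B2M lay above those with IFNγ alone (4104, 4377 and 4086 FPKM), but the difference of 0.12 did not pass the test on the deposited scale (adjusted p = 0.377).

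The promoter windows of these 4 genes are shown because they carry the elements named above. Each runs from 250 bases before to 50 bases after the start of transcription in RefSeq (GRCh38.p14), and capitals mark matches on either strand to GAS, written TTCNNNGAA, or ISRE, written GAAANNGAAA, which can overlap.
CXCL10, chr4:76023448-76023747 (minus strand): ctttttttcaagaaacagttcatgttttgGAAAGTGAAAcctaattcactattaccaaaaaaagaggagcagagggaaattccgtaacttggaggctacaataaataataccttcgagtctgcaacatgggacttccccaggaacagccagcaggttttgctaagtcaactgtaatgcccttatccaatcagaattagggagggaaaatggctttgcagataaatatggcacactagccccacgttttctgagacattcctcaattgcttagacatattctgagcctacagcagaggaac
CD274, chr9:5450292-5450591 (plus strand): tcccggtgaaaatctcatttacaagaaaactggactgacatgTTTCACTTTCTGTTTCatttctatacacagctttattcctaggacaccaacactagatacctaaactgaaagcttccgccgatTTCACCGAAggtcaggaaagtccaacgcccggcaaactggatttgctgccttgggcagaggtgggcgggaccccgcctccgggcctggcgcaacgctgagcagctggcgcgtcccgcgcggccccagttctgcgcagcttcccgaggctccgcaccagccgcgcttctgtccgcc
BST2, chr19:17405581-17405880 (minus strand): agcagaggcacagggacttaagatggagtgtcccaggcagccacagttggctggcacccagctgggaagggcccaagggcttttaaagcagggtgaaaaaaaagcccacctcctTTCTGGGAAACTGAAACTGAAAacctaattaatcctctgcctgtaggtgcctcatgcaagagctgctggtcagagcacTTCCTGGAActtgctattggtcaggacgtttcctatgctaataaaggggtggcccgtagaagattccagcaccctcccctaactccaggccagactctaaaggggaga
B2M, chr15:44711267-44711566 (plus strand): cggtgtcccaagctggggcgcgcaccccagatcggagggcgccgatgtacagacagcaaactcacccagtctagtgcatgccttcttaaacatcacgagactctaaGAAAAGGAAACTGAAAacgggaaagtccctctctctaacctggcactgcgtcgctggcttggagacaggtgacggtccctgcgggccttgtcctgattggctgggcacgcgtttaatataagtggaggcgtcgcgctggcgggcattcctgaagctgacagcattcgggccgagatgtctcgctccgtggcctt
The CXCL10 window holds an ISRE match that begins 221 bases before the start. The CD274 window has overlapping ISRE matches on the minus strand, the first 208 bases before the start, and a GAS match 125 bases before it. The BST2 window has GAS matches 136 and 58 bases before the start, with overlapping ISRE matches from 130 bases before it, the first of which shares bases with a GAS match, and the B2M window has overlapping ISRE matches from 144 bases before it. RefSeq windows were found for 5 of the 12 largest rises, which do not include B2M. Of these 5 genes, 3 held a GAS match and 3 an ISRE match, and the BATF2 window held neither. Windows were found for 3845 genes of the table, of which 9.02% held a GAS match and 3.64% an ISRE match. Among the 94 genes with a window that were higher past 1.5-fold, 20.2% held a GAS match and 20.2% an ISRE match, and among the 385 lower genes 8.05% and 3.12% did. A match is a run of letters and not a measured binding site.

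**Figure D3:**
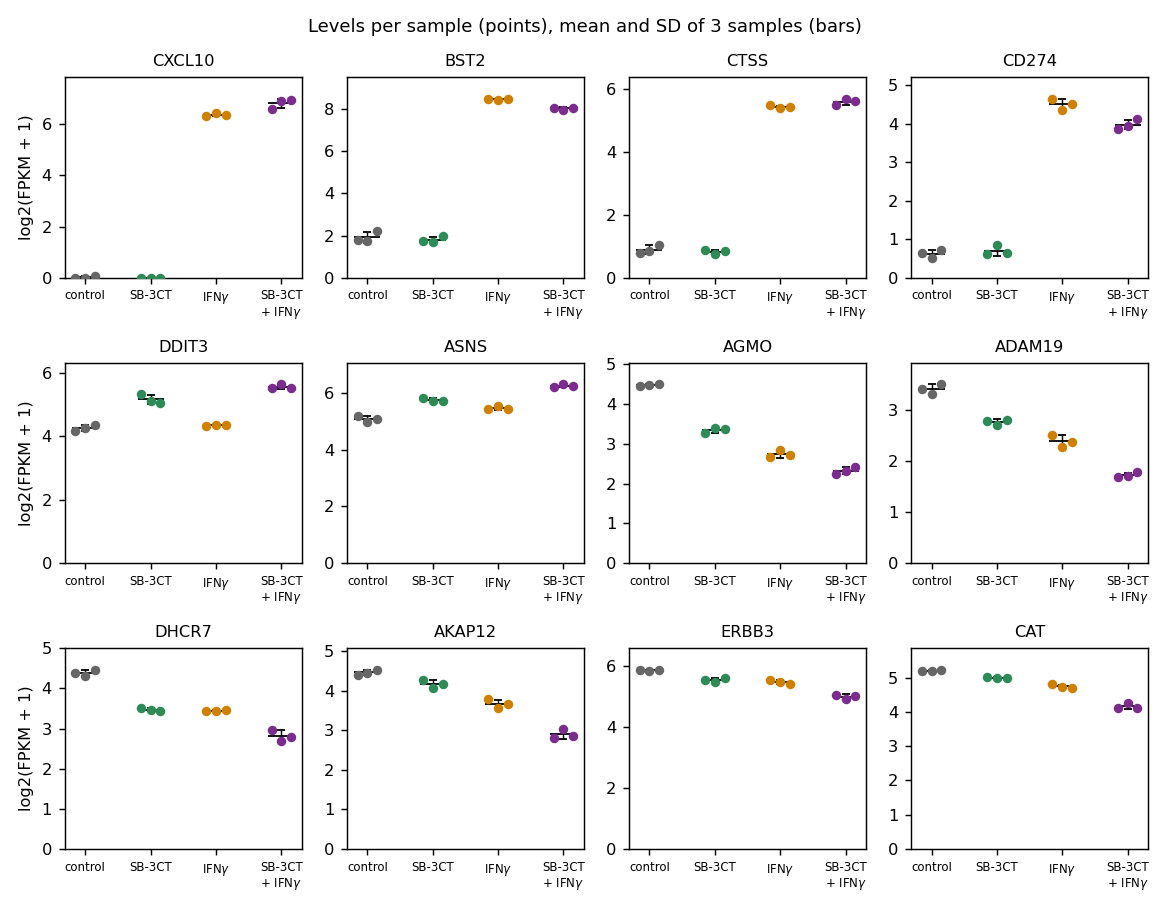
Levels of 12 genes in the 12 samples. The y axis is log2(FPKM + 1), each point is a sample, and the bars give the mean and SD of 3 samples in each of the 4 groups. CXCL10, BST2, CTSS and CD274 are high in both groups with IFNγ, DDIT3 is high in both groups with SB-3CT, and AGMO, ADAM19, DHCR7, AKAP12, ERBB3 and CAT are lowest in the doubly treated samples.

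Antiviral genes were mostly higher in the doubly treated cells. Of 23 interferon antiviral genes in the table, 20 rose, 0 fell and 3 did not pass the test, with a median log2 change of 1.13 where the median of all genes was -0.11. After scaling, 21 rose and 0 fell. Beside BST2, the largest changes were those of the transcription factor gene BATF2 (2.39 ± 0.505 to 46.2 ± 3.03 FPKM, mean ± SD, n = 3, log2 change 3.81), the cytosolic DNA sensor AIM2 (5.88 ± 0.587 to 43.4 ± 3.59, 2.69) and the transcription factor gene BATF3 (2.72 ± 0.334 to 17.8 ± 2.23, 2.33). The RNA sensor gene DDX58, which encodes RIG-I, went from 0.607 to 6.01 FPKM (adjusted p = 4.97e-05) and had 12.9 FPKM with IFNγ alone. The smallest rises that passed were those of the cytidine deaminase genes APOBEC3B (0.20) and APOBEC3C (0.22), whose close homology may let reads be shared between them.

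All 4 apolipoprotein L genes of the table rose, on the deposited scale and after scaling, with a median log2 change of 2.92. These genes form a cluster on chromosome 22 and encode lipid-binding proteins, of which APOL1 is the trypanosome lytic factor. APOL3 had 0.749, 0.543 and 0.529 FPKM in the controls and 11.1, 11.2 and 11.6 FPKM in the doubly treated samples, with a log2 change of 2.94 (adjusted p = 5.32e-06 from limma). APOL6 (2.93) and APOL1 (2.91) changed by nearly the same amount, and APOL2 changed less (1.99). With IFNγ alone APOL3 had 18.8, 14.2 and 18 FPKM, above the doubly treated samples without overlap. The APOL2 samples with IFNγ alone were spread widely, at 40.5, 7.76 and 11.2 FPKM, and overlapped the doubly treated samples (29.3, 30.1 and 27.8 FPKM).

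Genes of antigen presentation moved in both directions. Of 15 in the table, 8 rose and 6 fell, with 9 and 3 after scaling, and the median log2 change was 0.73. On the deposited scale the higher share of 53.3% was above the 12.6% of genes with a mean of at least 1 FPKM. The lower share of 40% equalled that of all genes and was below the 53.1% of genes with a mean of at least 1 FPKM. Genes of the class I and of the class II route were among the rises. CTSS, the cysteine protease that trims the invariant chain of MHC class II, had 0.713, 0.819 and 1.08 FPKM in the controls and 44.4, 50.5 and 49 FPKM in the doubly treated samples (log2 change 4.71, adjusted p = 3.08e-06 from limma). CIITA, the master regulator of MHC class II genes, went from 13.5 ± 0.783 to 61.6 ± 2.73 FPKM, and CD74, the invariant chain itself, from 935 to 1845 FPKM. The peptide-trimming enzymes of the class I route, ERAP1 (log2 change 0.98) and ERAP2 (0.84), rose too. The falls were those of the cathepsin genes CTSZ (-0.58), CTSH (-0.51) and CTSD (-0.28), of the lipid-presenting CD1D (-0.50) and of the endoplasmic reticulum chaperones CANX (-0.48) and CALR (-0.32). Of these, CALR and CTSH did not pass after scaling (adjusted p = 0.56 and 0.139), and CTSD was level between the groups there.

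Among 19 chemokine and cytokine genes, 10 rose and 2 fell, and 12 rose and 0 fell after scaling, with a median log2 change of 0.26. Only 9 of the 19 had a mean of at least 1 FPKM. CSF1, the macrophage growth factor, had 3.43, 3.72 and 3.9 FPKM in the controls and 25.9, 24.8 and 28.5 FPKM in the doubly treated samples (log2 change 2.55, adjusted p = 7.04e-06 from limma). The T cell attractant CCL5 (1.55) and the monocyte attractant CCL2 (1.43) followed CXCL10 and CSF1 in size. CCL2 had 8.19, 6.53 and 6.13 FPKM in the controls, 13.3, 15.2 and 12.2 with IFNγ alone and 17.6, 22.6 and 21 with both, so each group lay above the one before it without overlap. The neutrophil attractant CXCL3 (-0.36) and CCL28 (-0.29) were the genes that fell, and neither passed after scaling (adjusted p = 0.112 and 0.476).

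A few complement genes rose steeply. Of 21 in the table, 5 rose and 3 fell, with 8 and 1 after scaling. On the deposited scale the other 13 did not pass the test, so the median log2 change was 0.02. The shares there were 23.8% higher and 14.3% lower, beside 9.84% and 40.0% of all genes. C1S, a protease of the first complement complex, had 0.139, 0.156 and 0.412 FPKM in the controls and 39, 37.4 and 36.2 FPKM in the doubly treated samples (log2 change 4.97, adjusted p = 3.08e-06 from limma). Among the other rises, its partner protease C1R (3.13) and the central component C3 (2.51) rose past 1.5-fold, and the chaperone-like CLU by less (0.32). The genes that fell were CD55 (-0.65) and CD46 (-0.36), which protect the cell surface from complement, and the protease CFI (-0.29), of which CD55 also passed after scaling (-0.38, adjusted p = 0.0267). C1R overlaps C1RL, so reads may be shared between them. A2M, a broad protease inhibitor in blood, went from 2.7 ± 0.264 to 32.8 ± 0.575 FPKM (log2 change 3.19).

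Of 20 checkpoint and adhesion ligands, 8 rose and 5 fell, with 11 and 3 after scaling, and the median log2 change was -0.03, or 0.19 after scaling. The shares of 40% higher and 25% lower on the deposited scale stood beside 12.6% and 53.1% of genes with a mean of at least 1 FPKM. CEACAM1, an adhesion molecule that also restrains T cells, had 0.69, 0.985 and 0.918 FPKM in the controls and 10.2, 10.2 and 9.31 FPKM in the doubly treated samples (log2 change 2.55). CD40, the costimulatory receptor (1.85), and CD47, the signal that holds off phagocytes (1.54), also rose, as did the butyrophilin genes BTN2A2, BTN3A1, BTN3A2 and BTN3A3 (0.67 to 1.21). CD47 had 11.1, 12 and 12.6 FPKM in the controls and 34.2, 36.9 and 38.8 FPKM with both agents. The genes that fell were CMTM4 (-0.55) and CMTM6 (-0.42), which stabilise PD-L1 protein at the membrane, CD44 (-0.46), the checkpoint ligand CD276 (-0.45) and CD83 (-0.22). After scaling, CMTM6 and CD83 did not pass (adjusted p = 0.0682 and 0.869).

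Among 35 caspase and BCL2 family genes, 10 rose and 10 fell, with 19 and 5 after scaling, and the median log2 change was 0.02. Higher and lower calls each made up 28.6% of the list on the deposited scale, beside 12.6% and 53.1% of genes with a mean of at least 1 FPKM. The largest rise was that of the inflammatory caspase CASP1. CASP1, which processes interleukin 1 beta, was listed at 0 in 1 control and at most at 0.0907 FPKM in the others, and had 7.34, 8.22 and 7.09 FPKM in the doubly treated samples (log2 change 3.04). CASP4, the sensor of cytosolic lipopolysaccharide, had 20.4, 22.3 and 20.9 FPKM in the controls and 64, 72.6 and 73.3 FPKM with both agents (log2 change 1.68), and the survival gene BCL2A1 had a log2 change of 2.47. CASP10 (0.76) and the pore-forming BAK1 (0.68) rose by less. The genes of the apoptosome proteins APAF1 (-0.54) and CASP9 (-0.49) fell, as did BCL2 (-0.38) and BIRC6 (-0.59), and these 4 passed after scaling too. CYCS, the cytochrome c of the same complex, did not pass on the deposited scale (0.02, adjusted p = 0.838) and was higher after scaling (0.30, adjusted p = 0.0105).

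Some of the largest rises lay outside the immune lists. BANCR, a long non-coding RNA named for its activation by BRAF, had 1.11, 0.945 and 1.35 FPKM in the controls and 39.5, 42.2 and 45.6 FPKM in the doubly treated samples (log2 change 4.35, adjusted p = 3.08e-06 from limma). It had 29.7, 46.1 and 35.7 FPKM with IFNγ alone and was at or below 0.348 FPKM in the samples with SB-3CT alone. CD7, a surface glycoprotein of T cells and natural killer cells, had 0, 0.0692 and 0.0474 FPKM in the controls and 13.5, 11.8 and 13.3 FPKM with both agents, and 11.7, 11.2 and 11.3 FPKM with IFNγ alone. The defining T cell markers CD3D and CD8A stayed at or near 0, with at most 0.0957 FPKM for CD3D and 0 for CD8A in the doubly treated samples. CD68, a lysosomal protein of macrophages that other cells also make, went from 21.4 ± 1.55 to 28.7 ± 0.961 FPKM (log2 change 0.41, adjusted p = 0.00231). Of the 16 markers of other cell types, 4 rose and 1 fell, both before and after scaling. These are 25% and 6.25% of the list, beside 9.84% and 40.0% of all genes, or 20.7% and 20.5% after scaling. Only 3 of the 16 had a mean of at least 1 FPKM.

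**Figure D4:**
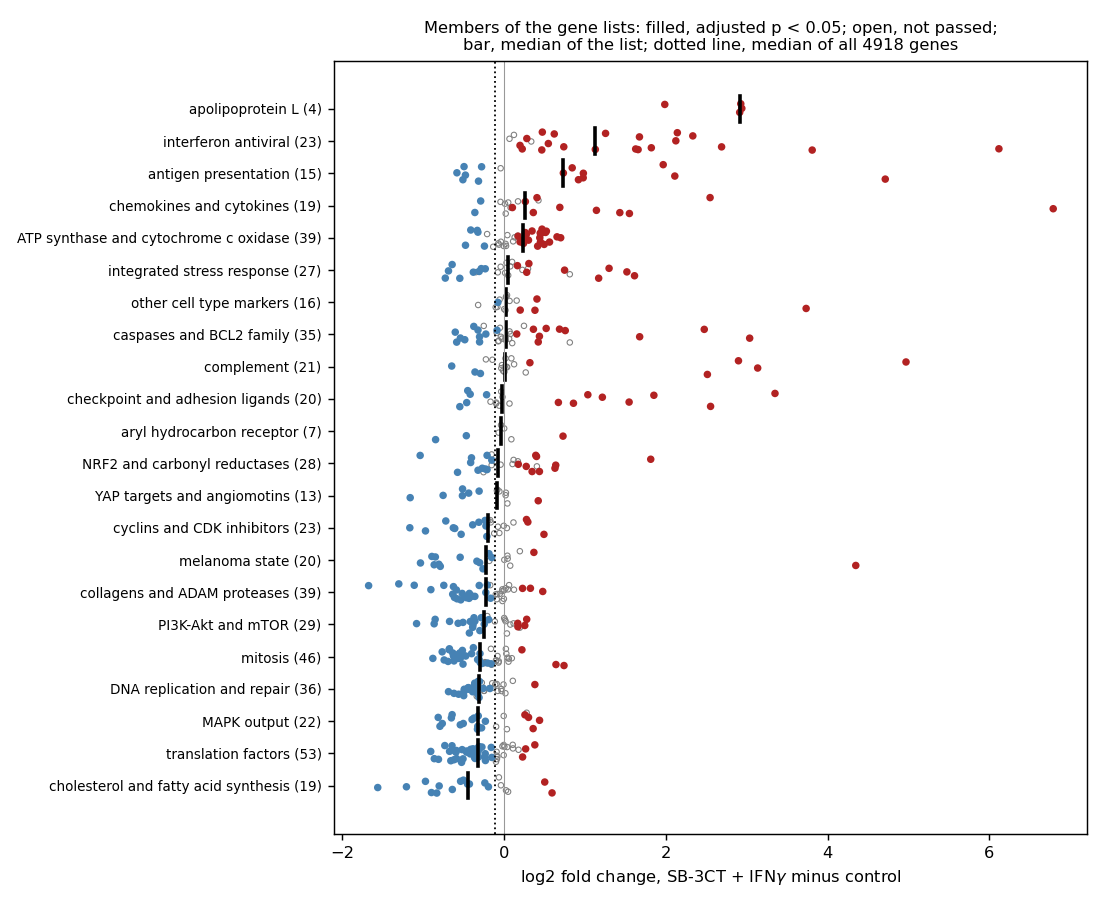
Log2 changes of the members of 22 gene lists, ordered by the median of the list. The x axis is the log2 fold change of doubly treated cells against control (n = 3 per group), each point is a gene of the table, filled where its adjusted p-value was under 0.05 (red higher, blue lower), bars are list medians and the dotted line is the median of all genes at -0.11. The apolipoprotein L and interferon antiviral lists lie highest, and the list of cholesterol and fatty acid synthesis lies lowest with a median of -0.45.

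Part of the integrated stress response was also higher in the doubly treated cells. Of 27 genes, 8 rose and 8 fell, with 16 and 4 after scaling, and the median log2 change was 0.05. Each share was 29.6% on the deposited scale, beside 12.6% higher and 53.1% lower among genes with a mean of at least 1 FPKM. DDIT3, which encodes CHOP, had 17, 18.3 and 19.5 FPKM in the controls, 19.1, 19.3 and 19.6 with IFNγ alone, 39.5, 34 and 32.4 with SB-3CT alone and 45.1, 49.1 and 44.7 with both. Controls and samples with IFNγ alone overlapped, while both groups with SB-3CT lay above them and the doubly treated samples highest. The log2 change against control was 1.30 (SE 0.06, adjusted p = 7.69e-05 from limma), and the differences from IFNγ alone and from SB-3CT alone were 1.22 and 0.39 (adjusted p = 0.000232 and 0.0119). DDIT3 overlaps MARS1 on the other strand.

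ASNS, asparagine synthetase, had 35, 30.6 and 32.9 FPKM in the controls and 72.5, 77.6 and 74.8 FPKM in the doubly treated samples, a log2 change of 1.17 (adjusted p = 7.47e-05). It had 55.3, 50.7 and 51.1 FPKM with SB-3CT alone and 41.6, 44.9 and 41.9 with IFNγ alone, so the doubly treated samples were the highest of all 12. CHAC1, an enzyme that breaks down glutathione, had 5.91, 5.26 and 5.33 FPKM in the controls and 16.8, 17.4 and 18.6 FPKM with both agents (log2 change 1.52), with means of 13.6 and 11 FPKM under SB-3CT and IFNγ alone. The stress-induced transcription factor gene ATF3 had the largest change of the list, 1.61, from 4.11, 3.89 and 4.22 to 14.3, 13.8 and 15.4 FPKM. For ATF3 the doubly treated samples overlapped those with IFNγ alone (14.4, 13.5 and 13.7 FPKM), and the difference of 0.06 had an adjusted p-value of 0.497. ATF4 itself went from 257 to 317 FPKM (0.31, adjusted p = 0.00248).

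The 8 genes of this list that fell included the endoplasmic reticulum stress sensors EIF2AK3 (-0.55) and ATF6 (-0.31), the co-chaperone DNAJC3 (-0.73) and EDEM1 (-0.38), which directs misfolded proteins to degradation. ATF6 and EDEM1 did not pass after scaling (adjusted p = 0.32 and 0.0597), whereas EIF2AK3 and DNAJC3 did. The promoter windows of CHAC1, ASNS and ATF3 are shown for their match to the composite ATF4-CHOP element, searched as TGATGNAA on both strands and set in capitals.
CHAC1, chr15:40953221-40953520 (plus strand): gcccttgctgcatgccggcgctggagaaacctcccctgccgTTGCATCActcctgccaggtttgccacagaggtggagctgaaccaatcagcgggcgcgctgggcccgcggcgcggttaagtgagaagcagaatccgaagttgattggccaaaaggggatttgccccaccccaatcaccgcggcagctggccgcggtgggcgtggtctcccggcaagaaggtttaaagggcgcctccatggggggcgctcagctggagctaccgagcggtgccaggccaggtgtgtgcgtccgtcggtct
ASNS, chr7:97872359-97872658 (minus strand): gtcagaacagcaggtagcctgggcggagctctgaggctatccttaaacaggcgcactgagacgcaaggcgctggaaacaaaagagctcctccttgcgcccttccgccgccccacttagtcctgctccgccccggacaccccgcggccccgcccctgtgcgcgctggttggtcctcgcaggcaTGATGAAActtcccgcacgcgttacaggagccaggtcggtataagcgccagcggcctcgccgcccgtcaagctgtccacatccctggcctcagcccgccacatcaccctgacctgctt
ATF3, chr1:212565157-212565456 (plus strand): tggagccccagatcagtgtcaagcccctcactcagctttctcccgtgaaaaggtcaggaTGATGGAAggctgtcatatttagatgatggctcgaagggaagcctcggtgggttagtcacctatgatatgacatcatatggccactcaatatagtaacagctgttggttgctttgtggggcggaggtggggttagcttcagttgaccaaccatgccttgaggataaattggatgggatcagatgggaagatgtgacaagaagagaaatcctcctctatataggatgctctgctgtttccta
The match begins 209 bases before the start in CHAC1, 68 bases in ASNS and 191 bases in ATF3, and neither of the DDIT3 windows holds these letters. Of the 3845 genes with a window 2.7% held the element, against 8.51% of the 94 genes higher past 1.5-fold and 1.3% of the 385 lower genes. For ASNS and ATF3 a further RefSeq window held no match.

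Among 28 genes of NRF2 and of carbonyl reduction, 9 rose and 10 fell, with 14 and 3 after scaling. On the deposited scale the higher share of 32.1% was above the 12.6% of genes with a mean of at least 1 FPKM. The lower share of 35.7% was below the 53.1% of those genes. The median log2 change turned from -0.08 to 0.14 with the scaling. CBR3, a carbonyl reductase, had 12.4, 13.6 and 13 FPKM in the controls, 17.5, 16.9 and 17.2 with SB-3CT alone, 43.2, 42.2 and 46.8 with IFNγ alone and 49, 47.2 and 48.4 with both, a net log2 change of 1.81 (adjusted p = 4.6e-06 from limma). AKR1C1, a steroid-reducing aldo-keto reductase with near-identical paralogs, had 7.62, 7.67 and 6.79 FPKM in the controls and 12.3, 12.5 and 11.1 FPKM with both agents. For AKR1C1 the samples with SB-3CT alone were higher than the controls (15.8, 14.5 and 13.5 FPKM) and those with IFNγ alone were lower (4.94, 4.95 and 4.02 FPKM), and the doubly treated samples lay between the controls and SB-3CT alone. AKR1B1, aldose reductase, rose as well (0.63). Catalase (CAT), which breaks down hydrogen peroxide, had 36.1, 35.5 and 36.7 FPKM in the controls and 16.5, 18.4 and 16.4 FPKM with both agents, a log2 change of -1.04 (adjusted p = 8.03e-05). Its samples were lowest in the doubly treated group and intermediate with either agent (30.9 FPKM with SB-3CT, 25.9 with IFNγ).

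The aryl hydrocarbon receptor gene AHR and its target moved in opposite directions. Of 7 genes in this list, 1 rose and 2 fell, with 3 and 2 after scaling. The shares were 14.3% higher and 28.6% lower, beside 9.84% and 40.0% of all genes, so the counts on the deposited scale do not set the list apart. After scaling they were 42.9% and 28.6%, beside 20.7% and 20.5% of all genes. AHR, a ligand-activated transcription factor, had 13.5, 13.1 and 13.8 FPKM in the controls and 6.58, 7.53 and 7.03 FPKM in the doubly treated samples (log2 change -0.85, adjusted p = 0.00016 from limma). Its partner ARNT fell by less (-0.47), and after quantile normalization ARNT no longer passed (-0.19, adjusted p = 0.0994). CYP1A1, the classic target of the receptor, had 3.57, 3.55 and 3.69 FPKM in the controls and 6.51, 6.13 and 7.26 FPKM with both agents (log2 change 0.73, adjusted p = 0.000481). With SB-3CT alone CYP1A1 had 7.73, 8.41 and 8.73 FPKM and with IFNγ alone 4.19, 3.75 and 3.91. On the deposited scale the repressor gene AHRR did not pass (-0.04, adjusted p = 0.768), and neither did 3 other genes of the 7 in this list.

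**Figure D5:**
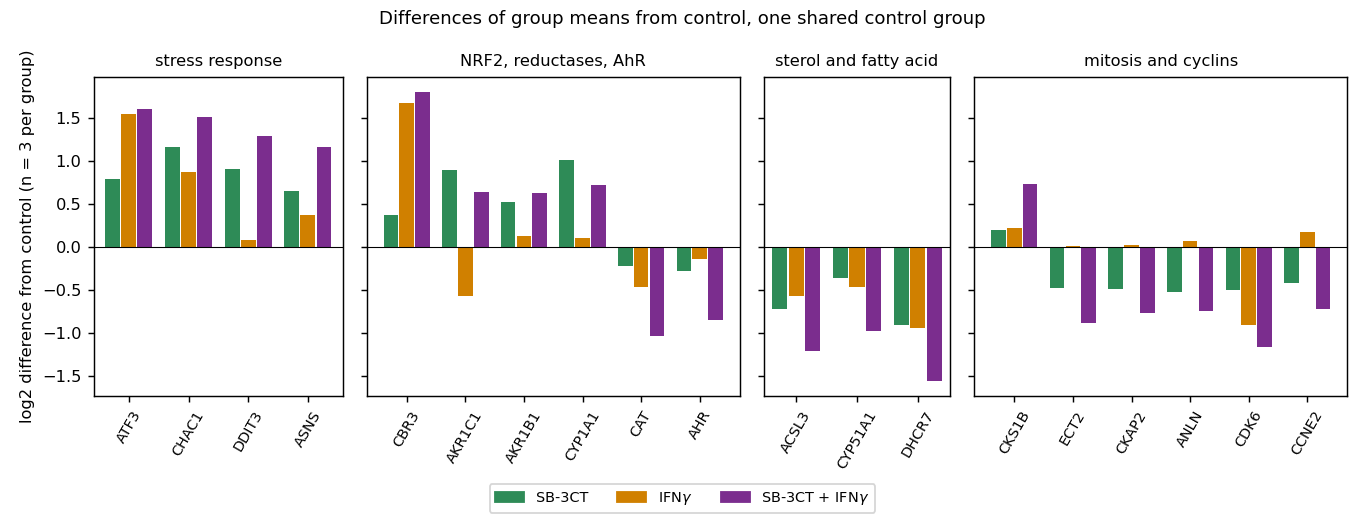
Differences from control under each treatment for 19 genes in 4 groups by function. The y axis is the difference of group means on the log2(FPKM + 1) scale (n = 3 per group), bars start at 0, and the colours are SB-3CT, IFNγ and both, all set against the same 3 controls. DDIT3 and CYP1A1 rise in the groups with SB-3CT, CBR3 mainly in those with IFNγ, and the sterol genes are lowest with both agents.

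Genes of cholesterol and fatty acid synthesis mostly fell. Of 19, 13 fell and 2 rose, with 10 and 4 after scaling, and the median log2 change of -0.45 was the lowest of the 22 lists. The lower share was 68.4%, 52.6% after scaling and 57.9% with the length trend removed, each above that of genes with a mean of at least 1 FPKM. DHCR7, the enzyme of the last step of cholesterol synthesis, had 19.8, 18.8 and 21.1 FPKM in the controls and 6.81, 5.47 and 5.96 FPKM in the doubly treated samples (log2 change -1.56, SE 0.08, adjusted p = 9.63e-05 from limma). It had 10.3, 10.1 and 9.86 FPKM with SB-3CT alone and 9.92, 9.76 and 10 with IFNγ alone, so each agent alone was near the middle of the range and the doubly treated samples were the lowest. CYP51A1 (-0.97), a further enzyme of sterol synthesis, and ACSL3 (-1.21), which activates long-chain fatty acids, also fell. ACACA, the rate-limiting carboxylase of fatty acid synthesis, went from 6.79 to 3.37 FPKM (-0.83). The genes that rose were the desaturase gene FADS3 (0.50) and ACSL1 (0.59), an acyl-CoA synthetase that was also high with IFNγ alone (11.3 FPKM, control 5.27). CYP51A1 overlaps AKAP9 on the other strand.

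The largest fall among the called genes on the log2(FPKM + 1) scale was in ether lipid metabolism. AGMO, which cleaves alkylglycerol ether lipids and lies on chromosome 7 of hg19 (15239942 to 15601640, minus strand), had 20.7, 21.1 and 21.5 FPKM in the controls and 3.74, 3.99 and 4.33 FPKM in the doubly treated samples. With SB-3CT alone it had 8.65, 9.43 and 9.35 FPKM and with IFNγ alone 5.31, 6.21 and 5.59. The 4 groups did not overlap, and the doubly treated samples were the lowest. The log2 change against control was -2.14 (SE 0.05, adjusted p = 6.09e-06 from limma), and against IFNγ alone and SB-3CT alone it was -0.42 and -1.02 (adjusted p = 0.0092 and 0.000274).

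The other large falls were in genes of varied function. ADAM19, a metalloprotease that sheds surface proteins, had 9.51, 8.91 and 10.3 FPKM in the controls and 2.21, 2.27 and 2.42 FPKM with both agents (log2 change -1.68), and means of 5.79 and 4.23 FPKM with SB-3CT and IFNγ alone. AKAP12, a scaffold for protein kinase A, had 20.2, 20.8 and 22.1 FPKM in the controls and 6.04, 7.22 and 6.27 FPKM with both agents (-1.56). For both genes the doubly treated samples lay below every other sample. ANK3, which ties membrane proteins to the spectrin skeleton (-1.41), the phospholipid enzyme gene CDS1 (-1.38), the BMP antagonist CHRDL1 (-1.34), ARHGAP18 (-1.32), ANKRD50 (-1.31), ADAM23 (-1.30) and the chitinase-like CHI3L2 (-1.26) completed the largest falls. The antisense RNA ARHGAP5-AS1 (-1.36) overlaps ARHGAP5 on the other strand. ARHGAP18 and ANKRD50 were similar under either agent alone (means of 4.86 and 5.53 FPKM, and 7.29 and 7.56 FPKM) and had 2.64 and 3.6 FPKM with both. CHI3L2 had 1.17, 1.8 and 1.5 FPKM with IFNγ alone and 1.54, 2.17 and 2.48 with both, and these overlapped.

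Of 39 collagen and ADAM genes, 22 fell and 3 rose, with 19 and 3 after scaling, and the median log2 change was -0.23. COL5A2, a fibrillar collagen chain, had 29.3, 28 and 31.3 FPKM in the controls and 13.2, 12.9 and 13.2 FPKM in the doubly treated samples (log2 change -1.11, adjusted p = 4.62e-05 from limma). The sheddase ADAM9 fell by less (-0.91). The median transcript of this list was long, at 6446 bases, and with the length trend removed 19 genes of the list were lower and 3 higher. The lower share of 56.4% was near the 53.1% of genes with a mean of at least 1 FPKM, a level that 22 of the 39 reached. It was above the 40.0% of all genes. After scaling 48.7% of the list were lower, beside 25.8% of genes with a mean of at least 1 FPKM. With the length trend removed 48.7% were lower too, beside 34.2% of those genes.

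Among 20 genes of the melanoma state, 12 fell and 2 rose, with 9 and 5 after scaling, and the median log2 change was -0.23. The lower share of 60% was near the 53.1% of genes with a mean of at least 1 FPKM. It was 45% beside their 25.8% after scaling, and 50% beside their 34.2% with the length trend removed. ERBB3, a receptor of the neuregulins that melanocytes carry, had 56.9, 56.6 and 57.8 FPKM in the controls and 31.9, 29 and 31.7 FPKM in the doubly treated samples (log2 change -0.87, adjusted p = 8.48e-05 from limma). It had 45.6, 43.1 and 47.9 FPKM with SB-3CT alone and 45.3, 43.8 and 41.6 with IFNγ alone, values that lay between those of the controls and of the doubly treated samples. The cadherin genes CDH19 (-1.04) and CDH2 (-0.89, N-cadherin) fell, as did CSPG4 (-0.79), a melanoma surface proteoglycan, and the lipid carrier FABP7 (-0.81). AXL, a receptor kinase of the dedifferentiated state, did not pass on the deposited scale (0.04, adjusted p = 0.469) and was higher after scaling (0.32, adjusted p = 0.00184). Beside BANCR, CSAG1, a cancer-testis antigen gene, rose (0.37).

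Of 46 mitosis genes, 28 fell and 3 rose, with 20 and 11 after scaling and 21 and 5 with the length trend removed, and the median log2 change was -0.30. The lower share was 60.9% beside 53.1% of genes with a mean of at least 1 FPKM, 43.5% beside 25.8% after scaling and 45.7% beside 34.2% with the length trend removed. ECT2, which starts the contractile ring in cytokinesis, had 11.6, 10.9 and 11.5 FPKM in the controls, 12.9, 10 and 11.5 with IFNγ alone, 9.29, 7.1 and 7.47 with SB-3CT alone and 5.64, 6.09 and 5.37 with both (log2 change -0.88, adjusted p = 0.000149 from limma). Controls and IFNγ alone overlapped, and the doubly treated samples were the lowest. ANLN, the ring protein anillin (-0.74), and the spindle protein CKAP2 (-0.77) fell too, but for these genes the difference from SB-3CT alone did not pass (adjusted p = 0.136 and 0.103). CKS1B, a small subunit that binds cyclin-dependent kinases, rose instead, from 259, 265 and 252 to 429.7, 437 and 432 FPKM (0.74, adjusted p = 4.67e-05), with means of 298 and 303 FPKM under SB-3CT and IFNγ alone.

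Of 36 genes of DNA replication and repair, 20 fell and 1 rose, and after scaling 8 fell and 4 rose, with a median log2 change of -0.31. The lower shares of 55.6%, 22.2% after scaling and 30.6% with the length trend removed were near those of genes with a mean of at least 1 FPKM (53.1%, 25.8% and 34.2%). DBF4 (-0.69) and CDC7 (-0.56), the subunits of the kinase that fires replication origins, ERCC6L (-0.62), which acts on DNA bridges in anaphase, and BARD1 (-0.50), the partner of BRCA1, had the largest changes. CDC7 had 3.49, 3.69 and 4.11 FPKM in the controls and 2.04, 1.94 and 2.72 FPKM in the doubly treated samples, and its adjusted p-value was 0.052 after median-ratio scaling and 0.0723 after quantile normalization. Of 23 cyclin and CDK inhibitor genes, 11 fell and 3 rose, with 5 and 6 after scaling, and the median of the list changed sign from -0.20 to 0.07. The lower share of 47.8% lay between the 40.0% of all genes and the 53.1% of those with a mean of at least 1 FPKM, and it was 34.8% with the length trend removed. CDK6, a kinase of the G1 phase, had 13.8, 12.6 and 12.3 FPKM in the controls and 4.67, 5.34 and 5.6 FPKM with both agents (log2 change -1.17, adjusted p = 0.000164), while its samples with IFNγ alone were spread (2.4, 8.48 and 11.7 FPKM) and overlapped those with both. Cyclin E2 (CCNE2, -0.72) and cyclin T1 (CCNT1, -0.63), a subunit of the transcription elongation kinase P-TEFb, also fell. CDKN1C, a CDK inhibitor, had 3.54, 4.66 and 8.2 FPKM in the controls and 2.29, 2.33 and 1.86 FPKM with both agents, and its change of -0.97 (adjusted p = 0.023) did not pass with the replicate block (adjusted p = 0.051) nor after scaling (0.0574). The inhibitor gene CDKN1A, which encodes p21, had control and doubly treated means of 395 and 340.1 FPKM (-0.21), and its sign turned after scaling (0.07, adjusted p = 0.205).

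Of 53 translation factor genes 36 fell and 3 rose, with 20 and 15 after scaling, and the median log2 change was -0.33. The lower share was 67.9% beside 53.1% of genes with a mean of at least 1 FPKM, 37.7% beside 25.8% after scaling and 47.2% beside 34.2% with the length trend removed. EIF5B, which joins the ribosomal subunits, had 16.1, 15.9 and 15.5 FPKM in the controls and 7.47, 8.45 and 8.01 FPKM in the doubly treated samples (log2 change -0.91, adjusted p = 0.000114 from limma). EIF4G3 (-0.86), a scaffold of the cap complex, EIF5 (-0.81) and the amino acid sensing kinase gene EIF2AK4 (-0.73) fell too. Of 29 genes of PI3K-Akt and mTOR signalling, 16 fell and 4 rose, with 8 and 7 after scaling, and the median log2 change was -0.25. Its lower shares of 55.2%, 27.6% after scaling and 34.5% with the length trend removed were near those of genes with a mean of at least 1 FPKM. DEPTOR, an inhibitor of mTOR, went from 2.34 ± 0.208 to 0.587 ± 0.245 FPKM (-1.08) and EIF4B, a helicase cofactor, from 128 to 79.8 FPKM (-0.68).

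Of 22 genes of MAPK output, the pathway that mutant BRAF drives, 14 fell and 4 rose, with 8 and 7 after scaling, and the median log2 change was -0.32. The lower share was 63.6% beside 53.1% of genes with a mean of at least 1 FPKM, and 36.4% beside 25.8% after scaling. With the length trend removed 7 genes were higher and 7 lower, or 31.8% each. On that scale 16.9% of genes with a mean of at least 1 FPKM were higher and 34.2% lower, so the list held no excess of falls there. The ETS factor genes ELK3 (-0.82) and ETV1 (-0.77), the immediate early gene EGR3 (-0.79) and the ephrin receptor gene EPHA4 (-0.65) had the largest falls. The feedback phosphatase genes DUSP4 (-0.64) and DUSP6 (-0.54) fell on both scales, while DUSP1 rose (0.36, adjusted p = 0.0263). CCND1, cyclin D1, did not pass on the deposited scale (0.03, adjusted p = 0.45) and was higher after scaling (0.31, adjusted p = 0.00067). Of 13 YAP targets and angiomotins, 6 fell and 1 rose, with 4 and 4 after scaling, and the median log2 change was -0.09. The lower share of 46.2% lay between that of all genes (40.0%) and that of genes with a mean of at least 1 FPKM (53.1%). It was 30.8% after scaling and 38.5% with the length trend removed, beside 25.8% and 34.2% of genes with a mean of at least 1 FPKM. AMOT, a junction protein that binds YAP, had 4.98, 4.97 and 5.28 FPKM in the controls and 2, 1.65 and 1.51 FPKM with both agents (-1.16), and its relative AMOTL1 fell by less (-0.76). The secreted matrix protein gene CTGF (-0.52) and CRIM1 (-0.51) fell as well, but CYR61 did not pass (0.02, adjusted p = 0.819).

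The ATP synthase and cytochrome c oxidase genes were higher on the deposited scale, with 22 rises and 5 falls among 39, and 30 and 1 after scaling. Their transcripts are short, with a median of 1101 bases, and with the length trend removed 13 rose and 4 fell, while the median log2 change went from 0.23 to 0.07. The higher share was 56.4%, beside 12.6% of genes with a mean of at least 1 FPKM, and 76.9% beside 28.8% after scaling. With the length trend removed it was 33.3% beside 16.9%. COX17, a copper chaperone of cytochrome c oxidase, had 292, 328 and 309.7 FPKM in the controls and 460.2, 504 and 499 FPKM in the doubly treated samples (log2 change 0.65, adjusted p = 0.000445 from limma). ATP5I, a small subunit of ATP synthase, had 409, 455 and 392 FPKM in the controls and 647, 735 and 657 FPKM with both agents (0.70, adjusted p = 0.000852), but with the length trend removed its change was 0.19 with an adjusted p-value of 0.061. The assembly factor gene COX14 (0.56) and the subunit gene COX6C (0.52) rose on the deposited scale, with 0.21 (adjusted p = 0.00986) and 0.31 (adjusted p = 0.0107) when the length trend was removed.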

How the data were processed

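RNA of the A375 samples was sequenced with 150-base paired-end reads. Per the labels, HISAT2 2.0.5 and StringTie 1.3.3 were used with hg19 by the authors to obtain FPKM, with no further scaling stated, and the gene annotation is not given in the sources used here. The deposited values are on a log2 scale that fits log2(FPKM + 1), and FPKM was taken back as 2 to the power of the value minus 1. Symbols from A1BG to FAM46B, 4918 genes, were analysed here.

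Groups were compared pairwise with limma 3.58.1 in R 4.3.3 (lmFit, eBayes with a variance trend, unpaired, 3 + 3 samples) on the deposited log2 scale, because a permutation test of 3 against 3 cannot give an exact p under 0.1. Calls needed an adjusted p-value under 0.05 (Benjamini-Hochberg, over all genes), and past 1.5-fold where the log2 change also exceeded 0.585. The functions were tested on simulated data.

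The named genes were CD274, CXCL10, the 12 largest rises and 12 largest falls (adjusted p-value under 0.05, mean FPKM of at least 1, no overlap) and up to 4 of the largest changes in each of 22 hand-written gene lists. Other list members were named after their values were seen, to show where a list split. The comparison and the lists were chosen with earlier results of these data known. Alternatives were an offset of 0.1, a filter at a mean FPKM of 1, median-ratio scaling, quantile normalization, all 12 samples in the fit, the replicate number as a block, eBayes without trend or robust, removal of the length trend and each sample left out. Positions and transcript lengths came from GENCODE release 44 on GRCh37 (hg19), where 4458 symbols were found as such and 417 under another name. Promoter windows came from RefSeq (GRCh38.p14). A few named genes are not reported here.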

Additional observations from a re-analysis of the deposited data

How the results depend on the processing

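The split between rises and falls depended on scaling. After median-ratio scaling 1016 genes were higher and 1006 lower, and past 1.5-fold 262 and 132. After quantile normalization 760 were higher and 1126 lower, and past 1.5-fold 191 and 151. With the length trend removed 620 were higher and 1277 lower, and past 1.5-fold 158 and 164. An offset of 0.1, which lets low genes pass the fold limit, gave 210 higher and 941 lower past 1.5-fold. Lower genes made up 59.7% of calls after quantile normalization and 67.3% with the length trend removed, against 80.3% on the deposited scale. The cause of these shifts was not tested. The filter at a mean FPKM of 1, the fit over all 12 samples and the other eBayes settings left all 4 counts within 1.5 times. Leaving out a sample gave 399 to 437 higher and 1716 to 1841 lower genes, and 130 to 135 and 422 to 495 past 1.5-fold.

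Same-numbered control and doubly treated samples did not deviate together (correlations of -0.0063, 0.0983 and -0.101 across genes for the 3 numbers), so the test was left unpaired. These values cannot tell whether same-numbered samples were handled together. With the replicate block 437 genes were higher and 1808 lower.

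Of the 94 named genes, 90 kept their direction and their side of the threshold under all alternatives, and none of the 94 reversed. Nearly all of the 94 were picked as the largest changes that passed on the deposited scale, so this stability owes much to the choice. It does not extend to the other list members named in the text. Several of those, such as CALR, CTSH, CMTM6 and CDKN1A, did not pass after scaling. The 4 of the 94 that changed were ARNT, CDC7, ATP5I and CDKN1C. CDKN1C missed the threshold in 7 settings, 4 of which left out a sample, with adjusted p-values of 0.051 to 0.0795. The counting error of low values was not estimated, because the number of reads is not known.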
